A study of Mus musculus with 2 samples.

Results

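Immature neutrophils with few or no cell-cycle UMIs and with RNA for the secondary granules were described in mouse pancreatic tumors. They were taken from 2 droplet libraries and were chosen by their own UMI counts (unique molecular identifiers, 1 per captured RNA molecule). A barcode passed the quality filter with 1000 UMIs or more, 200 genes or more and no more than 20% of UMIs from mitochondrial genes. The gate then asked for at least 3% of its UMIs from S100a8 and S100a9, at least 1% from Camp, Ngp and Ltf, fewer than 5 UMIs over Mki67, Top2a, Ube2c, Birc5 and Stmn1, and at most 2 UMIs over Cd3e, Cd79a and C1qa. The gate kept 1880 of 14022 barcodes that passed the quality filter, 742 of 6904 in the PBS library and 1138 of 7118 in the cmExoaCD11b library.

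Both groups were male C57BL/6J mice, 5 to 6 weeks old when obtained, that carried orthotopic tumors of K210 cells in the pancreas. K210 is a line grown from the pancreatic tumor of a genetically engineered mouse in which Pdx1-Cre, active in the pancreas, deleted Trp53 (fl/fl). The PBS group received the vehicle, injected intraperitoneally every 3 days from day 7. The cmExoaCD11b group received, on that schedule, exosomes of mouse embryonic fibroblasts that carried IL-12 mRNA and 5 µg of 2′3′-cGAMP per mouse and an antibody to CD11b on their surface. cGAMP is an agonist of STING, the cytosolic DNA sensing adaptor that drives type I interferon, and CD11b, encoded by Itgam, is present on neutrophils as well as macrophages. Tumors were taken 48 h after treatment, digested with collagenase and freed of erythrocytes, and 3 mice were pooled into each library. With 1 pool per treatment there is no replicate error and no test between the treatments was made. Every interval below is a 95% interval for counting error only. The treatment, the pool and the library cannot be told apart.

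Neutrophils mature in the bone marrow in an order that their granules record. Azurophil granule proteins such as myeloperoxidase are made in dividing promyelocytes, specific granule proteins such as lactoferrin in myelocytes and metamyelocytes, and gelatinase granule proteins in the last, band stage. Transcription of the specific granule genes stops before a neutrophil is fully mature, so RNA for Ltf, Camp and Ngp marks a cell that is young. Interferon-stimulated genes form a separate program, switched on by type I interferon through a transcription factor complex that holds STAT2 and IRF9 and binds a GAAA repeat known as the interferon-stimulated response element.

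The gated cells carried the markers that their name calls for. In PBS and cmExoaCD11b, respectively, Camp (the cathelicidin antimicrobial peptide) stood at 30521 and 24792 CPM (counts per 1000000 UMIs), Ngp (neutrophilic granule protein) at 38635 and 33854, and Ltf (lactoferrin) at 8917 and 7110. These 3 genes belong to the gate and their levels are description. Of the markers outside the gate, Lcn2, the iron-scavenging lipocalin of the same granules, stood at 20622 and 20172 CPM. Ly6g, the surface antigen by which mouse neutrophils are recognized, stood at 759.7 and 607.2 CPM and was seen in 674 of 742 and 1019 of 1138 cells. Cd177, another neutrophil surface protein, stood at 1054 and 924 CPM. The starts of Camp, Ngp and Ltf lie within one stretch of chromosome 9, at 109849456, 110419808 and 111019292 in RefSeq on GRCm38.p6. The S100a9 and S100a8 transcripts, also in the gate, took the most UMIs of any gene in both libraries. Of the next 13, apart from the gate genes, Tmsb4x, Lcn2, Retnlg, Actb, Lyz2, Fth1, H3f3b, Malat1, Ifitm6 and Chil3 differed between the libraries by ratios of 0.74 (Lyz2) to 1.57 (Chil3).

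The gate lay in a valley of the granule gene share. Among non-dividing cells rich in S100a8 and S100a9 the share of Camp, Ngp and Ltf had 2 humps in both libraries. Just inside the cutoff, at 1 to 1.25% of UMIs, were 18 PBS and 33 cmExoaCD11b cells, and just outside it, at 0.75 to 1%, were 27 and 43. Of the gated cells, 29.0% in PBS and 36.4% in cmExoaCD11b held 1 to 4 of the cell-cycle UMIs, so that exit from the cycle is not shown for each cell. At the cell-cycle limit, 13 and 34 gated cells had 4 UMIs of the 5 genes, and 14 and 26 cells just outside had 5, against a median of 47 and 43.5 in the cells that the limit set aside. B cells, which do not make granule proteins, were taken as barcodes with at least 2 Cd79a UMIs and under 3% of UMIs from S100a8 and S100a9. Barcodes rich in these 2 neutrophil transcripts were thus left out. The B cells had a median granule share of 0.0543% in PBS and 0.0481% in cmExoaCD11b. In the gate, 645 and 1068 cells had no UMI of Cd3e, Cd79a or C1qa. The libraries shared 15 barcodes among all that passed the quality filter, and no barcode was in the gate in both. The gated cells had a median of 13155 UMIs and 2314 genes in PBS and of 11092 UMIs and 2308 genes in cmExoaCD11b, and held 10242471 and 14322825 UMIs in all.

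**Figure D1:**
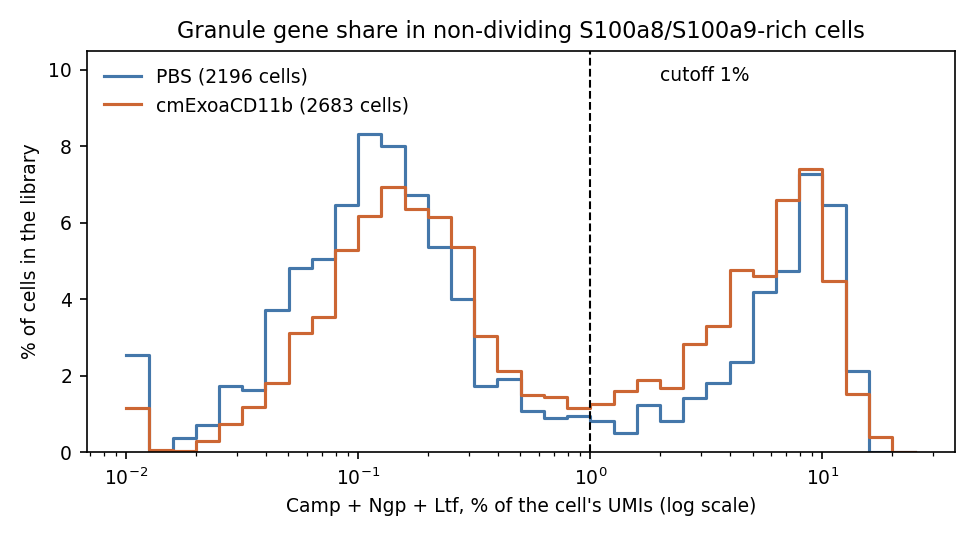
Distribution of the share of UMIs from Camp, Ngp and Ltf (x axis, percent, log scale, cells below 0.01% drawn in the first bin) over non-dividing S100a8- and S100a9-rich cells, as percent of those cells in each library (y axis). Both libraries have a low and a high hump, and the dashed line at 1% marks where the immature neutrophils begin.

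The immature neutrophils were a larger share of the cmExoaCD11b library. They made up 10.7% (10.0 to 11.5) of the barcodes in PBS and 16.0% (15.1 to 16.9) in cmExoaCD11b, a ratio of 1.49 (1.35 to 1.63). Counted only among cells rich in S100a8 and S100a9 with at most 2 UMIs of Cd3e, Cd79a and C1qa, they were 27.9% (26.2 to 29.7) and 32.2% (30.6 to 33.8), a ratio of 1.15 (1.05 to 1.27). Cells of the same gate with at least 5 cell-cycle UMIs, called dividing precursors here, went from 6.33% to 11.2% of barcodes, a ratio of 1.76 (1.57 to 1.99). Cells with under 1% granule genes, called granule-low neutrophils, stood at 21.1% and 21.7%, a ratio of 1.03 (0.959 to 1.11). Counted only among the cells rich in S100a8 and S100a9, as above, granule-low neutrophils were 54.7% and 43.7%, a ratio of 0.798 (0.743 to 0.858). When cells with any cell-cycle UMI were set aside the ratio for immature neutrophils was 1.33. These are shares of sequenced barcodes, and the number of cells per tumor was not analysed here.

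The genes that set the gate took smaller shares in cmExoaCD11b, which is a description of the chosen cells. The median share of Camp, Ngp and Ltf was 7.66% in PBS and 6.13% in cmExoaCD11b, and S100a8 and S100a9 together took a median of 26.9% and 23.4% of UMIs. Of the 6 specific granule genes outside the gate, 4 were higher in cmExoaCD11b, while Cd177 and Lcn2 were lower like the gate genes, at ratios of 0.88 and 0.98. The highest was Chil3 at 1.57, and the median was 1.18. Over all 8873 tested genes, 6115 had a ratio over 1 and the median was 1.13, so 4 of 6 is near the share over all genes. Cells with 1 to 2% granule genes were 7.55% of the PBS and 11.2% of the cmExoaCD11b cells, those with 2 to 5% were 18.9% and 29.5%, those with 5 to 10% were 48.1% and 44.1%, and those with 10% or more were 25.5% and 15.1%. A difference in pooled level between the treatments can therefore hold a difference in this mixture, and the main genes are also given at matched granule share.

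The immature cells had little of the azurophil gene RNA of the dividing precursors, had specific granule RNA near the precursor level, and had gelatinase granule RNA near the level of the granule-low neutrophils. The 6 azurophil granule genes summed to 96.5 CPM in PBS and 105 in cmExoaCD11b, against 3743 and 4292 in the dividing precursors. Droplets with at most 100 UMIs held these 6 genes at 2321 and 3713 CPM, and free RNA was not subtracted from the sums. Elane, neutrophil elastase, stood at 22.1 and 22.6 CPM in the gate, where 1 cell held 31.9% of its PBS UMIs, and at 1448 and 1699 in the precursors. Its ratio in the gate was 1.02, and 0.20 once free RNA was removed. Of the 9 specific granule genes, Camp, Ngp and Ltf set the gates and their sums are fixed by that. The 6 others, Lcn2, Cd177, Chil3, Hp, Olfm4 and Pglyrp1, summed to 30464 and 32994 CPM in the immature cells, 30162 and 33951 in the precursors, and 5705 and 7857 in the granule-low neutrophils. These 6 are made together with the gate genes, so their levels between the gates are description as well. The 9 genes of gelatinase granules and late maturation, led by Retnlg (a resistin-like secreted protein), summed to 13208 and 15687 CPM, against 1527 and 3398 in the precursors and 14914 and 21654 in the granule-low neutrophils. The 6 subunits of the NADPH oxidase, the enzyme of the oxidative burst, summed to 6254 and 6014 CPM, close to the 5950 and 6040 of the precursors and above the 2952 and 3106 of the granule-low cells. The 14 NF-κB and inflammatory genes summed to 9653 and 10809 CPM, against 59339 and 41887 in the granule-low cells. Cebpe, the transcription factor that specific granule genes need, stood at 170.3 and 153.9 CPM, at 398.1 and 368.8 in the precursors and at 14.8 and 10.1 in the granule-low cells. The gates differ in depth, with a median of 24618 and 23796 UMIs in the precursors and 3403 and 3334 in the granule-low cells. The cell-cycle genes outside the gate summed to 2061 and 2196 CPM, against 10277 and 9462 in the precursors and 1229 and 1533 in the granule-low cells.

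**Figure D2:**
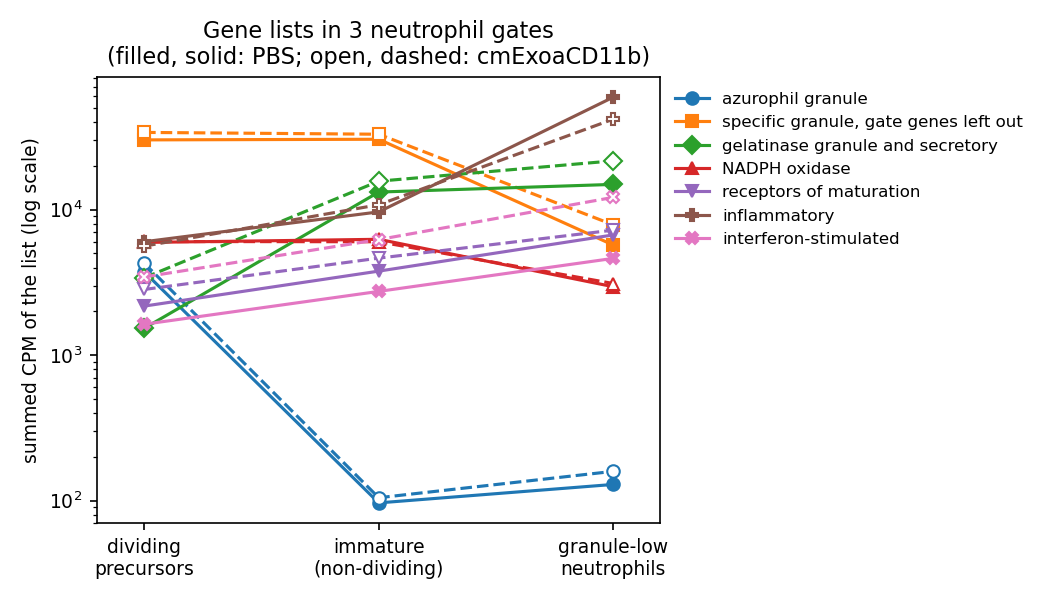
Summed CPM (y axis, log scale) of 7 gene lists in dividing precursors, immature neutrophils and granule-low neutrophils (x axis), with filled symbols and solid lines for PBS and open symbols and dashed lines for cmExoaCD11b. The azurophil granule genes drop from 3743 to 96.5 CPM between the first pair of gates in PBS, whereas the 6 specific granule genes outside the gate stand at 30162 and 30464 CPM there.

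The genes that stood highest in the gated cells relative to the granule-low neutrophils, besides the gate itself, were Orm1, Ldhc, Cpa6, Zmpste24, Lmo1, 4930438A08Rik, 9830166K06Rik, Mlst8, F730016J06Rik and Gm47071. Orm1, an acute-phase glycoprotein, stood at 231.7 and 315.4 CPM, 54.0 times its level in granule-low cells in PBS and 32.6 times in cmExoaCD11b. Lmo1, a LIM domain transcriptional cofactor, stood at 74.4 and 62.9 CPM, 20.7 and 14.9 times higher. Relative to the dividing precursors the leading genes were 4 hemoglobin genes, Mmp8, Retnlg, Gpr27, Chil5, Acvrl1 and Stfa3. Mmp8, neutrophil collagenase, stood 13.1 times above the precursors in PBS and 5.21 times in cmExoaCD11b. The hemoglobin reads came from few cells, since 1 cell held 92.8% of the Hbb-bs UMIs in PBS and 1 held 61.1% in cmExoaCD11b.

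Between the treatments, 8873 genes had at least 50 UMIs over both libraries in the immature neutrophils. Of these, 386 genes (4.35%) were at least 2-fold higher in cmExoaCD11b and 78 (0.879%) at least 2-fold lower, with 1 UMI added to each sum. The median gene had a ratio of 1.13, which is 0.17 on the log2 scale, and each list below is to be read against that median. Under scaling that sets this median to 1, 268 genes were higher and 122 lower. Among 7516 genes that reached the floor in all 3 neutrophil gates, 299 were 2-fold higher in the immature cells. In the dividing precursors 316 were, and in the granule-low neutrophils 464, with 162 higher in all 3 gates. Genes 2-fold lower numbered 55 in the immature cells, 38 in the precursors and 199 in the granule-low cells, with 12 lower in all 3. The overlap of lower genes is thus limited by the 38 of the precursors. In the lists of maturation, none of 9 specific granule, 8 gelatinase granule, 8 transcription factor and 6 NADPH oxidase genes tested reached 2-fold in either direction. Among azurophil genes 1 of 6 was 2-fold higher, Ctsg (cathepsin G), from 35 and 114 UMIs, and among cell-cycle genes outside the gate 1 of 14, Cenpf, counts of 1 that are to be read against the 4.35% of all genes. With equal weight per cell Cenpf had a ratio of 1.28. In cells with 5 to 10% granule genes alone Ctsg had a ratio of 1.54, so neither call held in every setting.

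Interferon-stimulated genes made up the clearest group. Of 37 genes on the list, 35 reached the floor. Of these, 29 were at least 2-fold higher in cmExoaCD11b, where 4.35% of all genes were. None of the 35 was lower than in PBS, while 6115 of all 8873 genes had a ratio over 1. The median ratio of the 35 was 4.22, against 1.13 over all genes. Isg15, a ubiquitin-like protein that is joined to other proteins after interferon, went from 71.8 CPM (735 UMIs) in PBS to 409.5 CPM (5865 UMIs), a ratio of 5.70 (5.28 to 6.17). In PBS 1 cell held 14.7% of its UMIs, and with the barcodes of highest doublet score removed the ratio was 9.65. Slfn5, a Schlafen family protein, went from 7.42 to 65.9 CPM, a ratio of 8.78 (7.03 to 11.4) and the largest of the list. These levels lay far outside each other's counting intervals.

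Further members of the list were among those at least 2-fold higher. Rtp4, a chaperone of receptors that interferon induces, went from 20.8 to 143.1 CPM, a ratio of 6.85 (5.97 to 7.96). Usp18, the protease that removes Isg15 and dampens the interferon receptor, went from 6.35 to 42.8 CPM, a ratio of 6.65 (5.22 to 8.85). Trim30a, a ubiquitin ligase with close relatives between which reads can be split, went from 43.6 to 219 CPM, a ratio of 5.01 (4.55 to 5.56). Zbp1, a sensor of Z-form nucleic acid, went from 10.9 to 58.1 CPM, a ratio of 5.27 (4.36 to 6.53). Rsad2, the antiviral enzyme viperin, went from 80.2 to 217 CPM, a ratio of 2.71 (2.51 to 2.93). The transcription factors Stat2 and Irf7 stood at 9.18 and 39.2 CPM and at 22.5 and 71.0 CPM. Dhx58, an RNA sensor, had a ratio of 2.31, which turned to 0.745 after thinning to 1000 UMIs.

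The size of several ratios depended on which barcodes and UMIs were kept. With the barcodes of highest doublet score removed, the ratio was 13.2 for Slfn5, 11.2 for Usp18, 6.37 for Rsad2 and 13.4 for Ifit1, a binder of foreign RNA caps whose ratio was 3.44 over all cells of the gate. With every cell thinned to 1000 UMIs it was 3.08 for Slfn5 and 8.26 for Zbp1. All of these stayed above 2-fold.

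The 6 tested genes of the list that did not reach 2-fold were all higher in cmExoaCD11b. They included its most highly counted members. Ifitm3, a membrane protein that blocks virus entry, stood at 1007 and 1774 CPM, a ratio of 1.76 (1.72 to 1.80), and Slfn4 at 729 and 1342 CPM, a ratio of 1.84 (1.79 to 1.89). Slfn1, Sp100, Cxcl10 and Ifit2 had ratios of 1.70, 1.89, 1.83 and 1.92. In PBS 1 cell held 58.6% of the Ifit2 UMIs, and with the highest doublet scores removed Ifit2 and Cxcl10 had ratios of 16.2 and 2.84. The Ifi200 genes Ifi204, Ifi209, Ifi211 and Ifi213 and the pair Ifit3 and Ifit3b had ratios of 3.84 to 6.02, and reads of these near-identical copies may be shared among them. They moved with the settings too, Ifi209 to 1.74 after thinning and 12.4 without the highest doublet scores, Ifit3 to 11.6 in the latter.

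**Figure D3:**
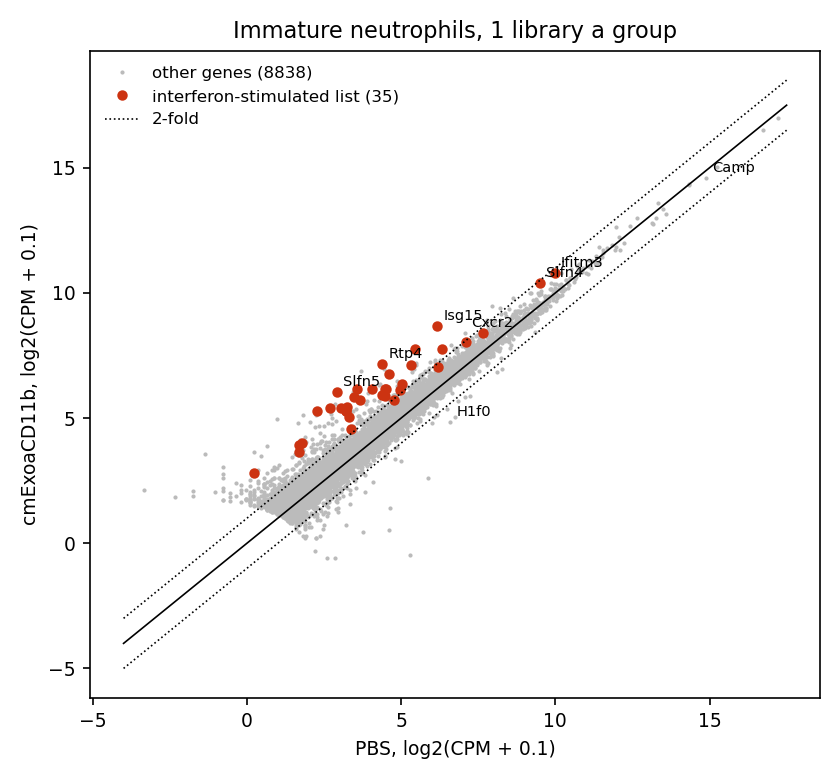
Level of each of 8873 genes in immature neutrophils of the PBS library (x axis) and the cmExoaCD11b library (y axis), as log2(CPM + 0.1), with the 35 tested interferon-stimulated genes in red and dotted lines at 2-fold. All 35 lie above the solid line of equal levels, and 29 reach a ratio of 2.

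The shift was spread over the cells. After each cell was thinned to 5000 UMIs, which kept 699 PBS and 1037 cmExoaCD11b cells, Isg15 was seen in 12.2% (9.83 to 14.8) of PBS and 56.8% (53.7 to 59.8) of cmExoaCD11b cells. Without thinning these shares were 21.6% and 66.3%. Rtp4 was seen in 6.58% and 43.1% of thinned cells. The 34 list genes other than Ifitm3, Slfn1 and Slfn4 gave a median of 2 UMIs per thinned PBS cell and 8 per cmExoaCD11b cell. None of the 34 was seen in 17.2% of PBS cells and in 1.83% of cmExoaCD11b cells. At 1000 UMIs per cell, which also admits B cells, Isg15 was seen in 4.04% of PBS immature neutrophils and 4.49% of PBS B cells (median depths before thinning 13155 and 5192), and the counting intervals of these shares, 2.74 to 5.72% and 2.34 to 7.72%, overlap. B cells can make Isg15 themselves. In cmExoaCD11b the shares were 23.4% and 7.20% (median depths 11092 and 7452). Free RNA, estimated from B-cell genes at 1.41% of the PBS and 1.64% of the cmExoaCD11b UMIs of these cells, would supply 3.03 and 7.68 CPM of Isg15.

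Interferon-stimulated genes were also higher in cmExoaCD11b at matched granule share. In cells with 1 to 2, 2 to 5, 5 to 10 and at least 10% granule genes, the median ratio of the tested list genes was 3.21, 2.86, 3.65 and 3.87, at a floor of 20 UMIs. Over all genes past that floor the medians were 1.07, 1.03, 1.13 and 1.12. List genes at least 2-fold higher numbered 30 of 35, 25 of 35, 29 of 35 and 23 of 30. Of all genes, 7.86%, 4.43%, 5.72% and 4.61% were. The summed level of the list was higher in the cells with fewest granule transcripts in both libraries, from 3802 CPM in the lowest PBS bin to 2158 in the highest, and from 9186 to 4333 in cmExoaCD11b. Isg15 stood at 876, 538, 327 and 189 CPM along the 4 bins in cmExoaCD11b and at 119, 197, 58.0 and 16.1 in PBS. Its ratios were 7.25, 2.73, 5.63 and 11.5, so their size differed between the bins. The lowest bin holds only 56 PBS cells.

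All 3 neutrophil gates carried the shift. In the dividing precursors 30 of 35 list genes were at least 2-fold higher, where 4.43% of all tested genes were, with a median ratio of 3.79, and none was 2-fold lower, where 0.779% of all were. In the granule-low neutrophils 33 of 35 were, where 6.35% of all were, with a median of 3.101, and none was 2-fold lower, where 3.13% of all were. Isg15 had ratios of 4.48, 5.70 and 3.57 in precursors, immature and granule-low cells. Rtp4 had 6.01, 6.85 and 3.24. In level, the granule-low neutrophils were highest in both libraries, with list sums of 4625 and 12149 CPM, against 2742 and 6228 in the immature cells and 1630 and 3444 in the precursors.

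**Figure D4:**
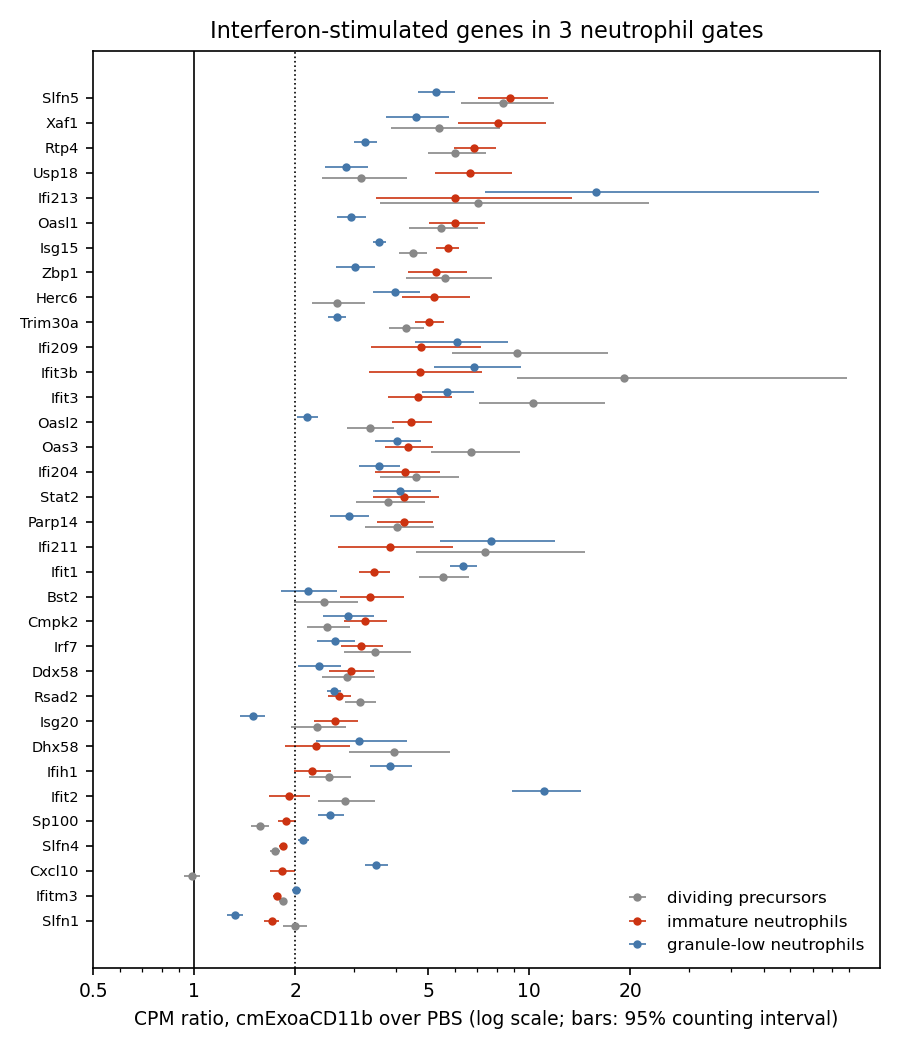
Ratio of cmExoaCD11b to PBS CPM (x axis, log scale) for 34 of the 35 tested interferon-stimulated genes, sorted by the ratio in immature neutrophils (red), with the dividing precursors in grey and the granule-low neutrophils in blue; bars are 95% counting intervals from 1 library per treatment. All red points lie above 1, from 1.70 for Slfn1 to 8.78 for Slfn5.

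The promoters of these genes were read for the letters of the response element. The sequences below show the 250 bases before the RefSeq start of the 5 list genes with the largest ratio among those that hold GAAA, any 2 bases and GAAA again, and of Rsad2. They are written 5′ to 3′ toward the gene on GRCm38.p6, and capitals mark matches on either strand, a match on the other strand reading TTTC, any 2 bases and TTTC.
Slfn5, chr11:82951852-82952101, plus strand: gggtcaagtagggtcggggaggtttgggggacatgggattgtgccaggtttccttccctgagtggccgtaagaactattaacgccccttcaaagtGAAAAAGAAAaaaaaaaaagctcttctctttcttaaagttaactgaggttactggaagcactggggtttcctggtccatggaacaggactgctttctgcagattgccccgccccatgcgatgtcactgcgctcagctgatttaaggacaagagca
Ifi213, chr1:173599273-173599522, minus strand: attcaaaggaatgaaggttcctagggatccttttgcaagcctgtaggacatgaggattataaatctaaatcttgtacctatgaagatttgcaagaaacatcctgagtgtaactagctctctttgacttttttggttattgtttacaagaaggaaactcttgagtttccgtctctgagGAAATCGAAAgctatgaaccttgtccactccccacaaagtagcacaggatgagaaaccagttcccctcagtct
Isg15, chr4:156200819-156201068, minus strand: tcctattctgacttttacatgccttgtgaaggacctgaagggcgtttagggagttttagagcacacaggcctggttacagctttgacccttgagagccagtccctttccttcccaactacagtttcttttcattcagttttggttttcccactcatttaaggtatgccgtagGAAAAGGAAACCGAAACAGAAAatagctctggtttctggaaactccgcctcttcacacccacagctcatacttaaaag
Trim30a, chr7:104465194-104465443, minus strand: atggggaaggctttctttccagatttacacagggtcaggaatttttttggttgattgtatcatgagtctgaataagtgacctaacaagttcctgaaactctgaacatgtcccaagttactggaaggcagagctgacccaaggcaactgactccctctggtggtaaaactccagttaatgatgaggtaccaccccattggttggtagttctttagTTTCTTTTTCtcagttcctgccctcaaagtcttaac
Ifit3b, chr19:34607707-34607956, plus strand: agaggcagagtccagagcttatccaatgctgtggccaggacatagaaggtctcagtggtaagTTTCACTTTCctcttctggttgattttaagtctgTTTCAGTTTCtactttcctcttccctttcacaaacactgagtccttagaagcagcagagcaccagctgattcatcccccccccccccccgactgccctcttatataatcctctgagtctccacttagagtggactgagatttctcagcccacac
Rsad2, chr12:26456453-26456702, minus strand: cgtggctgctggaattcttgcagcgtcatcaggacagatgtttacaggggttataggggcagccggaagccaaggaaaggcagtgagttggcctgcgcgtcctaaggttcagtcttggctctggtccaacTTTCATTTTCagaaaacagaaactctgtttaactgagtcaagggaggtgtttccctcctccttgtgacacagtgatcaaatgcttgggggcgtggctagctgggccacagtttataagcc
In Isg15 the capitals hold 3 overlapping matches, with 56 bases between them and the start. Of 37 list genes, 30 were found in the RefSeq table, and 13 of them (43.3%) held a match in these 250 bases, against 936 of 27025 genes (3.46%) in the whole table and 259 of 7024 (3.69%) among the tested genes found there. Of the genes at least 2-fold higher in cmExoaCD11b, 56 of 299 found there (18.7%) held a match, and of those 2-fold lower 4 of 51 (7.84%). The match was not particular to this list. Of the interferon gamma-responsive and MHC class I genes described below, 8 of 16 found there (50%) held one. None of 8 specific granule genes did. A match is a string of letters and not a shown binding site, and the Ifit and Ifi200 copies share sequence.

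Of 19 interferon gamma-responsive and MHC class I genes, 17 were tested and 9 were at least 2-fold higher in cmExoaCD11b, where 4.35% of all genes were. None was 2-fold lower, where 0.879% of all genes were, and 16 had a ratio over 1, as did 6115 of all 8873 genes. The median ratio of the list was 2.93, against 1.13 over all genes. Ifi47 and Irgm1, interferon-induced GTPases, had ratios of 9.83 and 6.98, from 35 and 41 UMIs in PBS, and Irgm1 had 3.37 after thinning to 1000 UMIs. Gbp2, a guanylate-binding protein, went from 6.54 to 36.2 CPM, a ratio of 5.46 (4.28 to 7.24). Tap1, which carries peptides to MHC class I, went from 22.7 to 67.0 CPM, a ratio of 2.94 (2.55 to 3.42). The class I heavy chain H2-K1 went from 331.5 to 587.7 CPM, a ratio of 1.77, and its light chain B2m from 691 to 1032 CPM, a ratio of 1.49. Many genes answer both kinds of interferon, so this list and the one above are not separate readings of type I and type II interferon.

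Of 12 genes of STING and IL-12 sensing 9 were tested, 3 were 2-fold higher (Cgas, Il12rb2 and Ifng) and 1 lower (Ifnb1), where 4.35% and 0.879% of all genes were, with a median ratio of 1.19. Most of these calls rest on few UMIs. Tmem173, which encodes STING, had 15 UMIs in PBS and 36 in cmExoaCD11b, and was seen at 1.46 and 2.51 CPM. Cgas, which makes cGAMP, stood at 2.15 and 6.98 CPM, a ratio of 3.14 (2.03 to 5.42) that was 1.63 after thinning to 1000 UMIs and 6.44 without any cell-cycle UMI. For Il12rb2, a chain of the IL-12 receptor, 1 cell held 71.4% of 14 UMIs in PBS. The interferon receptor genes Ifnar1 and Ifnar2 had ratios of 1.079 and 1.11, below the median of all genes. Il12rb1 had 4 and 5 UMIs. Ifng had 7 and 52 UMIs, and 1 cell held 23.1% of those in cmExoaCD11b, and its ratio went from 4.74 to 1.30 after thinning. Ifnb1 was lower, at 7.62 and 2.58 CPM, but 1 cell held 43.6% of its 78 UMIs in PBS, and its ratio in cells with 5 to 10% granule genes was 0.9996.

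Of 13 receptors and surface proteins of neutrophil maturation and trafficking, 2 were 2-fold higher in cmExoaCD11b, Cxcr2 and Il1r2, where 4.35% of all genes were. The median ratio of the list, 1.06, lay below the 1.13 of all genes. Of the 13 ratios 8 exceeded 1, as did 6115 of the 8873 over all genes. Cxcr2, the chemokine receptor that draws neutrophils out of the marrow and into tissue, went from 134.5 to 338.3 CPM, a ratio of 2.51 (2.37 to 2.67). It was seen in 41.6% of PBS and 71.2% of cmExoaCD11b cells thinned to 5000 UMIs. Il1r2, a decoy receptor for interleukin-1, went from 395.2 to 883.6 CPM, a ratio of 2.24 (2.16 to 2.32). Csf3r, the receptor for G-CSF, went from 176.3 to 321.9 CPM, a ratio of 1.83 (1.73 to 1.93), or 2.13 with the highest doublet scores removed. In that setting 4 of the 13 were 2-fold higher, where 5.52% of all genes were. The list median there was 1.34, against 1.16 over all genes. Csf2rb and Ccr1 had ratios of 1.81 and 1.28. Itgam, which encodes CD11b, the target of the antibody on the exosomes, stood at 517.8 and 532.2 CPM, a ratio of 1.03 (0.992 to 1.07). Cxcr4, the marrow retention receptor, had a ratio of 0.995 and Ly6g of 0.80.

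These receptors kept their direction at matched granule share. Cxcr2 had ratios of 1.90, 1.88, 2.38 and 2.81 from the lowest to the highest granule bin, Il1r2 of 2.75, 2.16, 1.83 and 1.82, and Csf3r of 1.82, 1.63, 1.54 and 1.57. All 3 genes had their lowest level in the bin richest in granule genes, in both libraries. Chil3, a chitinase-like lectin of the specific granule list, went the other way along the bins but was also higher in cmExoaCD11b in each, with ratios of 2.22, 2.42, 1.91 and 1.74. Over all cells it stood at 3995 and 6284 CPM, a ratio of 1.57 (1.55 to 1.59), whereas the median of the 9 specific granule genes was 0.98. Retnlg, in contrast, ran from 27764 to 2934 CPM along the bins in PBS and from 25931 to 3501 in cmExoaCD11b, with ratios between 0.93 and 1.19.

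**Figure D5:**
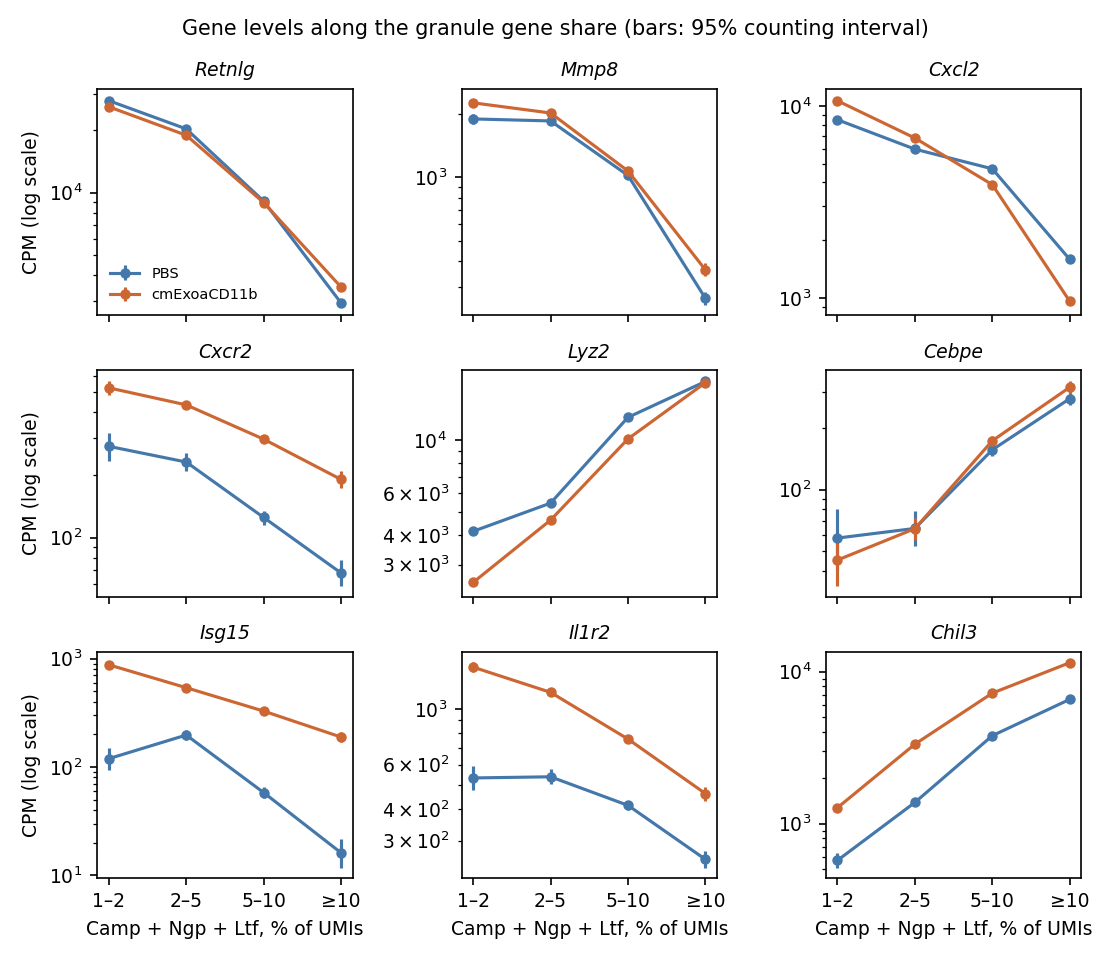
CPM (y axes, log scale) of 9 genes in immature neutrophils split by the share of UMIs from Camp, Ngp and Ltf (x axes, percent), for PBS in blue and cmExoaCD11b in orange, with 95% counting intervals. Isg15, Cxcr2, Il1r2 and Chil3 are higher in cmExoaCD11b in all 4 bins, whereas Retnlg and Cebpe follow nearly the same course in both.

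Of 14 inflammatory genes none reached 2-fold in either direction, where 4.35% of all genes were higher and 0.879% lower, with a median ratio of 1.09. That count rested on the barcodes kept. With the highest doublet scores removed 6 of the 14 were 2-fold higher, Il1b at 2.54, Cxcl1 at 2.67, Nlrp3 at 2.47, Ccl4 at 2.26, Icam1 at 2.17 and Ptgs2 at 2.16, where 5.52% of all genes were. Il1b, encoding interleukin-1β, stood at 581 and 1014 CPM, a ratio of 1.74 (1.69 to 1.80), and Tnf at 217 and 155 CPM, a ratio of 0.72 (0.676 to 0.761). Both ratios depended on the granule bin. Il1b had 2.45 in the lowest and 1.04 in the highest, and Tnf had 1.61 (1.26 to 2.13) in the lowest but 0.46, 0.72 and 0.69 in the others. In the setting without the highest doublet scores Tnf had 0.99. Of 11 genes linked to suppressive myeloid cells 9 were tested, 1 was 2-fold higher and 1 lower, where 4.35% and 0.879% of all genes were. Wfdc17, a small secreted protein with a whey acidic protein domain, went from 248 to 718 CPM, a ratio of 2.90 (2.77 to 3.03), with 2.28, 3.05, 2.27 and 1.43 along the granule bins. Among 15 hypoxia and glycolysis genes, 14 were tested and none passed 2-fold, where 4.35% of all genes were higher and 0.879% lower, with a median ratio of 0.87. Their lowest member was Hilpda, a lipid droplet protein that hypoxia induces, at 302.5 and 167.4 CPM, a ratio of 0.55 (0.524 to 0.584). At matched granule share Hilpda had 0.55, 0.75, 0.37 and 0.34, and Bnip3, a mitochondrial protein that hypoxia induces, had 0.42 in cells with 5 to 10% granule genes, against 0.68 over all. With the highest doublet scores removed Hilpda had 0.72 and Bnip3 0.87.

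The genes with the largest ratios were in good part carried by single cells or by free RNA. The 10 highest were Col10a1, Mgp, 3830403N18Rik, Ighg1, Il2ra, Ighg3, Bgn, Gzma, Oas1g and Ifi206. One cell held 96.8% of the Col10a1, 99.4% of the Mgp, 98.0% of the Bgn and 61.7% of the Il2ra UMIs in cmExoaCD11b. The immunoglobulin heavy chain gene Ighg1 stood at 1.86 and 31.4 CPM, and free RNA alone would give 1.403 and 31.4 CPM. Of the 10, Oas1g and Ifi206 belong to interferon-induced families. The 10 lowest included Mmp12, Il6, Pf4, Onecut2, Clu, Ctsk, Atp6v0d2 and Gpnmb. For Mmp12, a macrophage elastase, 1 cell held 59.7% of the UMIs in PBS, and for Onecut2 73.8%. Over all tested genes, 163 had at least 25% of a library's UMIs in 1 cell, 67 of them among the 386 higher and 11 among the 78 lower.

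A second list was therefore drawn after the values were seen, of 3922 genes with at least 500 UMIs and less than 10% of each library's UMIs in any cell. Of these, 97 (2.47%) were at least 2-fold higher and 6 (0.153%) at least 2-fold lower. The 15 highest were Slfn5, Rtp4, Oas1a, Ddx60, Oasl1, Lipg, Oas2, Gbp2, Zbp1, Herc6, Trim30a, Gbp7, Igtp, Oasl2 and Trim30d. Apart from Lipg, these names belong to families known to be induced by interferon. Members of such families were not counted among the 3922 genes, so no enrichment is claimed. Lipg, an endothelial lipase that acts on lipoproteins, went from 21.6 to 125 CPM, a ratio of 5.78 (5.04 to 6.70), and had ratios of 2.995 in the precursors and 6.60 in the granule-low cells. The lowest gene was H1f0, which encodes the linker histone H1.0, at 96.8 and 28.3 CPM, a ratio of 0.29 (0.260 to 0.328). The linker histones Hist1h1d and Hist1h1c were among the 15 lowest, with ratios of 0.44 and 0.54, the latter short of 2-fold. Other linker histone genes were not tallied. H1f0 was lower in all 4 granule bins, with ratios of 0.35, 0.38, 0.23 and 0.39. Cstdc5, a stefin A-like protease inhibitor with close copies, had a ratio of 0.40, and Bcl2a1a and Bcl2a1b, copies of an anti-apoptotic BCL2 relative, 0.50 and 0.48. Mif, a cytokine, had 0.45. These 3 calls were lost with the highest doublet scores removed, where the ratios were 0.91, 0.92 and 0.65, while H1f0 had 0.34 and Cstdc5 0.40. Along the granule bins Cstdc5 had 0.59, 0.14, 0.47 and 0.78, so its level was not 2-fold lower in the lowest and highest bins. Idi1 and Insig1 of sterol synthesis and its control had 0.58 and 0.61, short of 2-fold.

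Markers of other cells were low in the gate but moved between the libraries. The 11 T and NK genes summed to 32.6 CPM in PBS and 51.5 in cmExoaCD11b, with Cd3d the most counted at 11.6 and 10.8. The 7 B-cell genes summed to 115 and 263 CPM, most of it Igkc at 99.1 and 242, and these genes were the ones that set the estimate of free RNA. Igkc was also higher in near-empty droplets, at 7650 and 15483 CPM. The 7 macrophage genes summed to 140 and 58.5 CPM, led by Apoe at 107 and 33.2. Ly6c2, which immature neutrophils and monocytes share, stood at 812 and 838 CPM and made up most of the 6 monocyte genes, which summed to 873 and 926 CPM. The 7 dendritic cell genes summed to 222 and 337 CPM, led by Cd74, of which 1 cell held 33.8% in PBS and 21.2% in cmExoaCD11b, and Siglech was at 0 in both. The 5 epithelial genes summed to 11.4 and 3.98 CPM, the 7 acinar genes to 0.683 and 0.489, and the 7 eosinophil and basophil genes to 0.781 and 1.26, with Epx at 0 in both. Col1a1 and Col3a1 lifted the 5 stromal genes from 15.2 to 38.7 CPM, and 1 cell held 75.9% and 95.5% of them in cmExoaCD11b. The 4 hemoglobin genes summed to 439 and 1018 CPM. The part of these cells in the differences was measured for the counts of genes. When the 38 PBS and 83 cmExoaCD11b cells with at least 10 UMIs of a list for T and NK, B, macrophage, dendritic, epithelial, stromal or red cells were removed, 330 genes were 2-fold higher and 61 lower, and 31 of the 35 interferon-stimulated genes were at least 2-fold higher with a median ratio of 4.57. The 6 heat-shock genes and the 8 immediate-early genes, which can mark stress of digestion, had median ratios of 1.20 and 1.17, against 1.13 over all genes.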

How the data were processed

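Single-cell RNA was measured by droplet sequencing in 2 libraries, PBS and cmExoaCD11b. The authors deposited raw UMI counts per gene and barcode, empty droplets included, with no normalization. The matrix headers name Cell Ranger 7.1.0, the study's methods 3.0.2; the genome build is not given in the sources used here. The members and gene lists were chosen with earlier results of these data known.

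Counts of the gated cells were summed per library and scaled to CPM. Ratios used genes with at least 50 UMIs and 1 added UMI, and genes were called by size alone, at 2-fold and 0.5-fold. Intervals are exact Poisson, Clopper-Pearson or conditional binomial, at 95%, checked on simulated data, and cover counting error only. The named genes are the 10 largest ratios each way outside the gate, Xist and Y-linked genes, the 15 with most UMIs, the markers, the 10 leading genes over each neighboring gate, and up to 4 members a list; further list members and the genes spread over many cells were named after their values were seen. Free RNA was taken from droplets with at most 100 UMIs. In all, 20 alternatives were tried, 2 of them added in this work after the data were seen (cells with UMIs of another class removed, and cells with 5 to 10% granule genes alone). Promoters came from RefSeq. Doublets were kept, because Scrublet called 0 barcodes on its own threshold. A few genes and alleles are not reported here. The work used Python 3.11.15, numpy 2.4.6, scipy 1.17.1, pandas 2.3.3, scanpy 1.11.5 and matplotlib 3.10.9.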

Additional observations from a re-analysis of the deposited data

Results flagged for a closer look

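Some genes had opposite directions in the immature neutrophils and a neighboring gate, and no difference between gates was tested. Mgp, Bgn, Col1a1 and Col3a1, genes of fibroblasts and matrix, had ratios of cmExoaCD11b to PBS of 30.4, 12.4, 3.20 and 8.07 in the immature cells and of 0.0338, 0.0794, 0.0572 and 0.0125 in the dividing precursors. Each had most of its cmExoaCD11b UMIs in 1 immature cell. In granule-low neutrophils Mgp, Bgn and Col3a1 had ratios of 0.227, 0.455 and 0.455. Bgn stood there at only 0.858 and 0.312 CPM, and its counting interval, 0.0346 to 2.22, includes 1. Its direction in those cells is therefore not shown, and the equal ratio of Col3a1 is to be read with the same caution. Mrc1 had 2.10 in the immature cells and 0.472 in the precursors, with 95.4% of its cmExoaCD11b UMIs in 1 immature cell. Il6 had 0.0870 in the immature and 3.40 in the granule-low cells, from 73 and 8 UMIs in the immature cells, where 9 PBS cells held any and 1 of them held 41.1%. Ifnb1 had 0.344 in the immature cells, 16.9 in the precursors and 5.001 in the granule-low cells, from 78 and 37 UMIs in the immature cells, of which 1 cell held 43.6% in PBS.

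Droplets with at most 100 UMIs, which the comparisons do not use, held Ighg1 at 99.3 CPM in PBS and 1921 CPM in cmExoaCD11b, a ratio of 19.3.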

How the results depend on the processing

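No paired analysis was possible because each treatment has 1 library, and for the same reason no replicate could be left out. The share ratio of immature neutrophils stayed between 1.43 and 1.61 under 11 of the 12 settings that change the gate or the cells, and was 1.33 without any cell-cycle UMI. Under all 20 settings the interferon-stimulated genes at least 2-fold higher numbered 23 to 31, the lowest after thinning to 1000 UMIs, where only 26 of the list reached the floor. Genes at least 2-fold higher numbered 140 after thinning to 1000 UMIs and 626 at a floor of 20 UMIs, where fewer and more genes are tested. Genes at least 2-fold lower numbered 15 and 182 in these settings, 43 at a floor of 100 UMIs, 122 under median-of-ratios scaling and 42 once the highest Scrublet scores were removed. That removal took 92 PBS and 66 cmExoaCD11b cells of the gate and gave the interferon-stimulated genes a median ratio of 6.08; the cause was not tested. Isg15 had ratios of 5.05 to 9.65 over the settings, Cxcr2 of 2.23 to 2.64, and H1f0 of 0.23 to 0.34.

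Some genes changed direction, given here as log2 ratios, and the cause was not tested. Without any cell-cycle UMI, Mgp and Bgn stood at -1.31, Mrc1 at -1.53, Col1a1 and Il12rb2 at -0.31 and Col3a1 at -1.77. With cells that hold 10 UMIs of another class removed, a setting chosen after seeing the data, Mgp stood at -1.44, Bgn at -1.03, Mrc1 at -2.44, Col1a1 at -0.30 and Col3a1 at -1.09. Mrc1 also stood at -2.68 with at least 2% granule genes and at -2.34 with no lineage UMI. After thinning to 1000 UMIs, Il2ra and Gbp4 stood at -0.032, Mrc1 at -0.30, Top2a at -0.10 and Dhx58 at -0.42. Ighg1 stood at -2.97 once free RNA was removed. In cells with 5 to 10% granule genes, also chosen after seeing the data, Onecut2 stood at 0.56, Hbb-bs at -0.25, Hba-a1 at -0.18, Stfa3 at 0.044 and Mrc1 at -1.44. Of 2012 values for the named or listed genes past 2-fold, 1929 were past 2-fold in one direction or the other. That count disregards direction, so it includes reversed values such as -2.97 for Ighg1 and -2.68 for Mrc1. The limits are 1 pool per treatment, granule-low cells of lower depth, and a floor of 50 UMIs, near which Tmem173 and below which Il12rb1 stood.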

Other observations

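The immature neutrophils also differed from the granule-low neutrophils in genes that stood lower in them. Those furthest below were Steap4, Csta3, Wfdc17, Ccl6, Ifitm1, Gm5150, Cxcl3, Il1b, Sirpb1b and Igfbp6. Steap4, a metalloreductase, stood at 4.20 and 17.8 CPM in PBS and cmExoaCD11b, against 70.7 and 140.2 in the granule-low cells. Ccl6, a chemokine, stood at 215.9 and 210.1 CPM, against 2508 and 1368. Below the dividing precursors, the leading genes were Elane, Rrm2, Mpo, Pclaf, Smc2, Prtn3, Cdc20, Cdca8, Cdca3 and Prc1, which belong to azurophil granules and to DNA replication and mitosis. Cell-cycle counts took part in setting that gate.

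Of 6 monocyte genes, all tested, 3 were at least 2-fold higher in cmExoaCD11b and none 2-fold lower, where 4.35% and 0.879% of all genes were. Ms4a4c stood at 1.46 and 14.9 CPM, a ratio of 9.56 (6.02 to 18.5), with ratios of 9.99 in the dividing precursors and 16.3 in the granule-low cells. Its ratio ran from 2.61 after thinning to 1000 UMIs to 23.0 with the highest doublet scores removed. Ccr2 and Vcan had ratios of 2.43 and 2.89 from 41 and 27 UMIs in PBS, and F13a1 and Ly6c2 had 1.84 and 1.03. Fn1, which encodes fibronectin, was lower, at 34.95 and 20.95 CPM, a ratio of 0.600 (0.512 to 0.701), and 1 cell held 24.6% of its UMIs in PBS. The Fn1 ratio ran from 0.17 without any cell-cycle UMI to 0.78 with the highest doublet scores removed.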
